A study of Homo sapiens with 6 samples.

Results

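The genes described here encode the channels, pumps and exchangers that move potassium, calcium, sodium and protons across cell membranes, measured by RNA-seq in ARPE-19 cells, a line of human retinal pigment epithelial cells. The members were chosen by symbol (the KCN, CACN, SCN, TRPC, TRPM, TRPV, ATP1A, ATP1B, ATP2A, ATP2B, ATP2C, SLC8 and SLC9A families), by protein-coding type and by a mean of at least 50 raw counts over the 6 libraries. Of 149 protein-coding genes with such a symbol, 50 met the count minimum, out of 30618 genes in the count table. They comprised 19 potassium channel genes, 4 calcium channel genes, 4 sodium channel genes, 6 TRP genes, 7 pump genes and 10 exchanger genes. The symbol rule also takes in 3 genes for binding partners that transport no ion themselves, TRPC4AP, SLC9A3R1 and SLC9A3R2, so that 47 members encode chains of a channel, pump or exchanger.

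All 6 libraries came from this 1 cell line under high glucose (50 mM). The NC group (3 libraries) received a non-targeting control siRNA, and the siEIF1 group (3 libraries) received an siRNA against EIF1, a factor that helps the small ribosomal subunit to select the start codon. Both groups shared the glucose, so no value here separates the effect of glucose, and 1 siRNA against EIF1 is named in the methods. The comparison asked which transcripts differ when EIF1 is lowered in cells under high glucose.

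Ion pumps spend ATP to build gradients of sodium, potassium and calcium across membranes. Channels let these ions run down their gradients, and exchangers use the sodium or proton gradient to carry another ion the other way. The retinal pigment epithelium uses such proteins to move fluid and ions between the photoreceptors and the choroid, to hold its pH and to shape the calcium signals that go with the uptake of shed photoreceptor membrane.

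The EIF1 transcript was measured first, as a check of the labels. It stood at 294.35, 281.08 and 281.28 FPKM (fragments scaled by transcript length and by the mapped fragments of the library) in NC and at 24.28, 22.68 and 23.5 FPKM in siEIF1, a log2 fold change of -3.58 (SE 0.0549, edgeR adjusted p = 1.08e-13). Library totals ran from 26499929 to 31431479 counts. Of 17 markers of the retinal pigment epithelium, OTX2 and MITF were present and not called, and TYR, TYRP1 and DCT were near 0. RPE65 and TTR were looked up but were not among the genes of the count table. Of the 10 tested, 3 were higher in siEIF1 (RLBP1, KRT8 and KRT18), against 20.6% of all tested genes called in either direction. The summed FPKM of the markers was 526 to 546 in NC and 570 to 616 in siEIF1. KRT18 and KRT8, keratins of many simple epithelia, hold most of that sum. BEST1, a chloride channel of this epithelium, was at 70.79, 66.58 and 60.54 FPKM in NC and at 62.06, 55.04 and 38.79 FPKM in siEIF1, which overlap (log2 fold change -0.32, SE 0.131, edgeR adjusted p = 0.106), and LRAT was at -0.40 (SE 0.269, edgeR adjusted p = 0.333), so neither was called. The abundant gene FTH1 covers 14.6% of the exonic bases of BEST1 on the opposite strand, and its part in these values was not tested. Of 10 fibroblast and mesenchymal markers 7 were tested, 4 were higher and 1 was lower, to be read against the same 20.6%. The summed FPKM of these markers, nearly all from VIM, was 867 to 890 in NC and 1048 to 1112 in siEIF1. The part of these shifts in the results that follow was not tested. In 4 tested photoreceptor and neuron markers, 1 endothelial marker and 2 immune cell markers edgeR, DESeq2 and limma called 0, with 1 (PDE6B) at an unadjusted p under 0.05, and the summed FPKM of each of the 3 lists stayed at or under 3.07 in every library. In bulk RNA, fewer cells of a type and less RNA per cell cannot be told apart.

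Most members did not pass the test when EIF1 was lowered, and those that did moved in both directions by less than 2-fold. A gene is called here when its adjusted p is under 0.05 (edgeR's quasi-likelihood test on the raw counts, with p-values adjusted by the Benjamini-Hochberg method across the 16749 genes tested). Of the 50 members, 13 were called, 7 higher (among them KCNK2, SLC8A1, KCNN4, KCNS3 and KCNK6) and 6 lower in siEIF1 (among them KCNG1, ATP2B1, SLC9A7, SCN9A and ATP1B3). SLC8A1 met the count minimum only through its siEIF1 libraries, so its call is part of these counts but supports nothing. The share called, 26%, stood against 20.6% of all tested genes (10.2% higher and 10.4% lower), and against 24.5% of the 13383 tested genes that also had a mean count of 50 or more (12.1% higher and 12.4% lower), so the members were called about as often as other genes of that depth. The median log2 fold change was 0.075 over the members and 0.0033 over all tested genes, and the median size regardless of sign was 0.147 and 0.148.

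By edgeR, 0 members passed the fold limit of the study's methods (a fold change above 2 or below 0.5), against 1.71% of all tested genes. Without any adjustment 20 members had a p under 0.05, as had 5464 of the 16749 tested genes. DESeq2 and limma also placed 0 members past the fold limit. At a limit of 1.5-fold, 5 members passed, among them KCNK2, ATP2B1, KCNG1 and SLC8A1, the last counted with the same reservation. In 19 of the 50 members (38%) the libraries of the 2 groups did not overlap, against 37.1% of all tested genes. These were the 13 called members and 6 others, TRPC4, TRPC4AP, TRPM7, CACNB1, SLC9A5 and KCNS1. The log2 fold changes of the 37 members that were not called lay between -0.34 and 0.35.

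**Figure D1:**
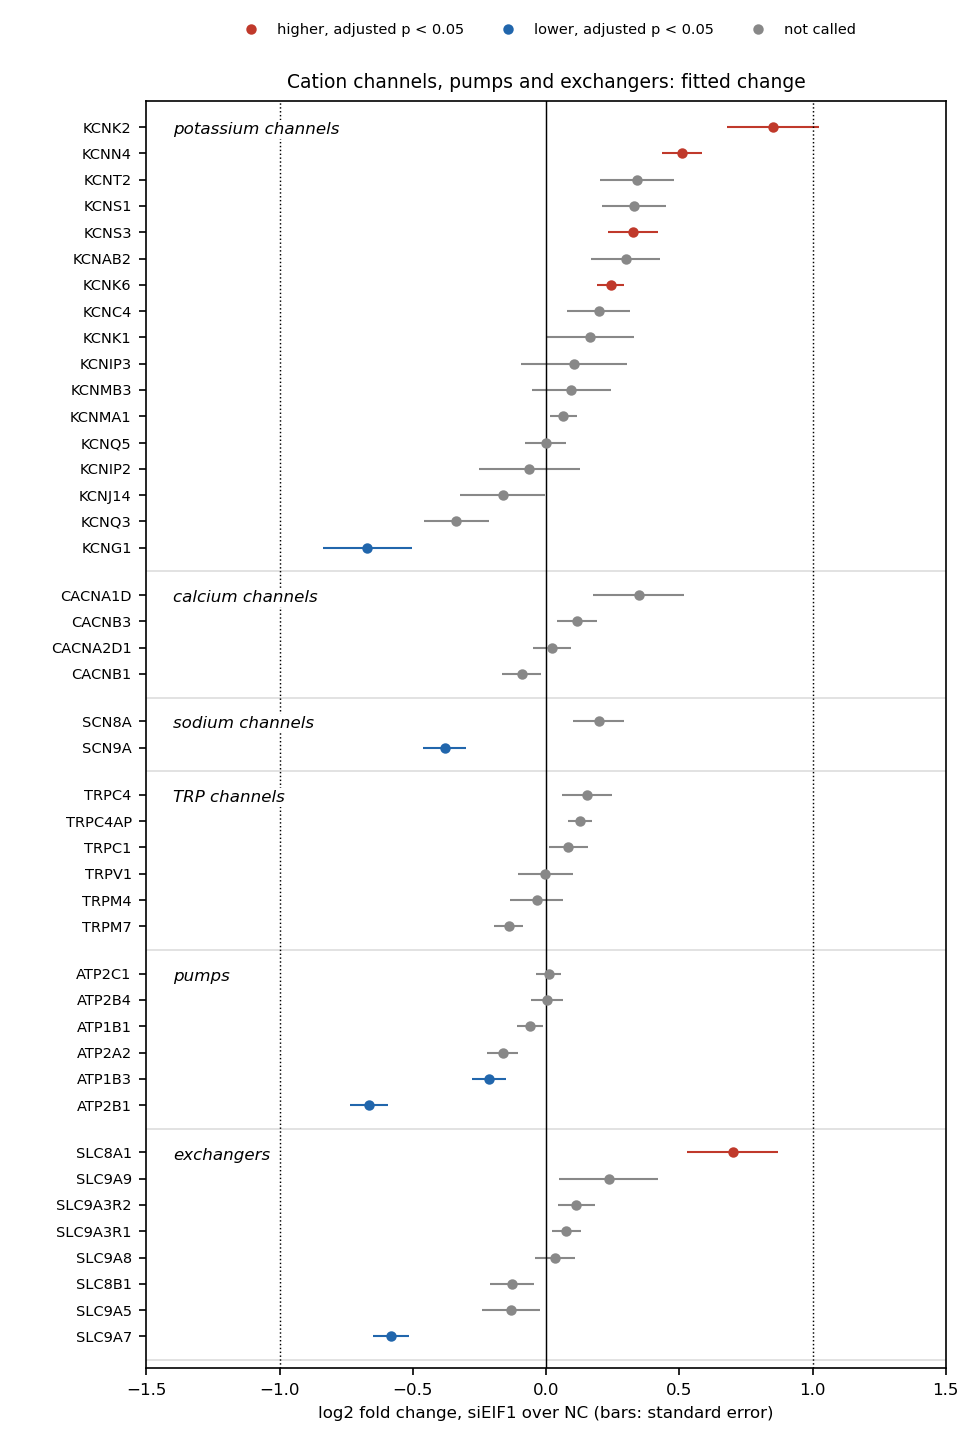
Fitted log2 fold change (siEIF1 over NC, 3 libraries each) of 43 members by class, with bars of 1 standard error and dotted lines at a fold change of 2 and 0.5. The called members, in color, lie on both sides of 0, from KCNK2 at 0.85 to KCNG1 at -0.67, and none reaches a dotted line with its central value.

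Compared per length, the members spanned a wide range of levels. Mean FPKM over the 6 libraries ran from 0.0833 (SLC8A1) to 144 (SLC9A3R1), with a median of 1.60. Only 6 members reached 10 FPKM, among them SLC9A3R1, ATP1B1, TRPC4AP, ATP1B3 and ATP2B4, and 17 members stayed under 1. Of these 6, 4 were pump chains and the others were binding partners, and no pore-forming channel chain was among them.

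Potassium channels set the resting voltage of a cell and, in epithelia, let potassium leave after the pump has brought it in. In this class, the one with the most members, 5 of 19 members rose, 1 fell and 13 were not called. The share called was 31.6%, against 24.5% of all tested genes with a mean count of 50 or more. The counts of the other classes below are to be read against the same 24.5%. The median log2 fold change of the class was 0.17, and 14 values were positive and 5 negative. Over all tested genes the median was 0.0033, with 8483 positive and 8266 negative. At an unadjusted p under 0.05 there were 10 members, DESeq2 called 7 and limma on log2(FPKM + 1) called 2. Of the 16749 tested genes, 5464 had an unadjusted p under 0.05, DESeq2 called 3043 and limma called 1347. The same counts in the classes below are to be read against these.

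The silent chains KCNG1, KCNS1 and KCNS3 form no channel of their own and join other voltage-gated potassium channel chains to alter how the channel opens and closes. Of these, 2 were called, in opposite directions. KCNG1 was read at 4.97, 4.81 and 4.07 CPM (raw counts scaled to a common library size) in NC and at 2.96, 2.27 and 3.45 CPM in siEIF1, with every siEIF1 library below every NC library. It fell by 0.67 on the log2 scale (SE 0.167, edgeR adjusted p = 0.0119), from 0.697 ± 0.0681 to 0.433 ± 0.1002 FPKM (mean ± SD, n = 3 in each group, as for all values with ± here). It lies on chromosome 20 from 51003656 to 51023107 on the reverse strand (GRCh38, GENCODE release 44, the source of all positions given here). KCNS3 went the other way, from 8.96, 8.61 and 9.37 CPM to 11.6, 10.2 and 12.1 CPM. Its groups did not overlap, and its log2 fold change was 0.33 (SE 0.0932, edgeR adjusted p = 0.0241). KCNS3 spans bases 17877847 to 18361616 of chromosome 2, on the forward strand. KCNS1 had a log2 fold change of about the same size, 0.33 (SE 0.119), without passing the test (edgeR adjusted p = 0.0678).

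Single libraries decided 2 of these calls. KCNG1 was no longer called without NC 1 or siEIF1 2 (edgeR adjusted p = 0.0552 and 0.0590), and KCNS3 was not called without NC 1, NC 2, siEIF1 1 or siEIF1 3 (edgeR adjusted p = 0.0621 to 0.0928).

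The 2-pore-domain channels carry the background leak of potassium that holds the resting voltage. Both called genes of this kind rose. KCNK2 (TREK-1, opened by stretch and by lipids) was read at 1.81, 1.97 and 1.88 CPM in NC and at 3.99, 3.16 and 3.05 CPM in siEIF1. The NC libraries lay close together, and siEIF1 1 stood above the other siEIF1 libraries. The log2 fold change was 0.85 (SE 0.173, edgeR adjusted p = 0.00350), and the level went from 0.357 ± 0.0153 to 0.640 ± 0.0954 FPKM. KCNK6 (TWIK-2) had the highest level of all potassium channel members, 5.64 ± 0.147 FPKM in NC and 6.58 ± 0.157 FPKM in siEIF1. It was read at 41.3, 43.2 and 42.7 CPM in NC and at 49.7, 50.4 and 50.5 CPM in siEIF1. Its spread within each group was far smaller than the gap between them, and the small rise of 0.24 on the log2 scale (SE 0.0511, edgeR adjusted p = 0.00442) passed under all 14 alternative fits. KCNK1 (TWIK-1) had a log2 fold change of 0.17 (SE 0.163, edgeR adjusted p = 0.531). KCNK2 spans bases 215005775 to 215237090 of chromosome 1, and KCNK6 bases 38319845 to 38332076 of chromosome 19, both on the forward strand.

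Among the channels opened by calcium or sodium, KCNN4 rose. It encodes KCa3.1, the intermediate-conductance channel that calmodulin opens when calcium rises. It was read at 11.5, 11.6 and 10.6 CPM in NC and at 16.03, 16.1 and 15.8 CPM in siEIF1. The groups were far apart for their spread, with a log2 fold change of 0.51 (SE 0.075, edgeR adjusted p = 3.62e-04) and levels of 2.71 ± 0.101 and 3.797 ± 0.0513 FPKM. KCNN4 spans bases 43766533 to 43780976 of chromosome 19, on the reverse strand. KCNMA1, the pore chain of the large-conductance BK channel and a known potassium channel of the native epithelium, was at 1.64 ± 0.0361 and 1.69 ± 0.122 FPKM (log2 fold change 0.065, SE 0.0516, edgeR adjusted p = 0.424). KCNMB3, a BK beta chain, was at 0.094 and KCNT2, a sodium-activated channel, at 0.34 on the log2 scale, and neither passed the test.

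Of the KCNQ family, which gives the slow M-type current, 3 members met the count minimum. Of these 0 were called by edgeR or by limma, while KCNQ3 had an unadjusted p under 0.05 and was the 1 member that DESeq2 called and edgeR did not. KCNQ5, known from the native epithelium, had a log2 fold change of -0.0003 (SE 0.0772). KCNQ3 was at 1.54 ± 0.271 FPKM in NC and 1.20 ± 0.190 FPKM in siEIF1 with overlapping groups, a log2 fold change of -0.34 (SE 0.121, edgeR adjusted p = 0.0673, DESeq2 adjusted p = 0.0339). The other potassium channel members that were not called were KCNC4, a voltage-gated pore chain, the inward rectifier KCNJ14, and the auxiliary chains KCNAB2, KCNIP2 and KCNIP3, with log2 fold changes between -0.16 and 0.30.

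**Figure D2:**
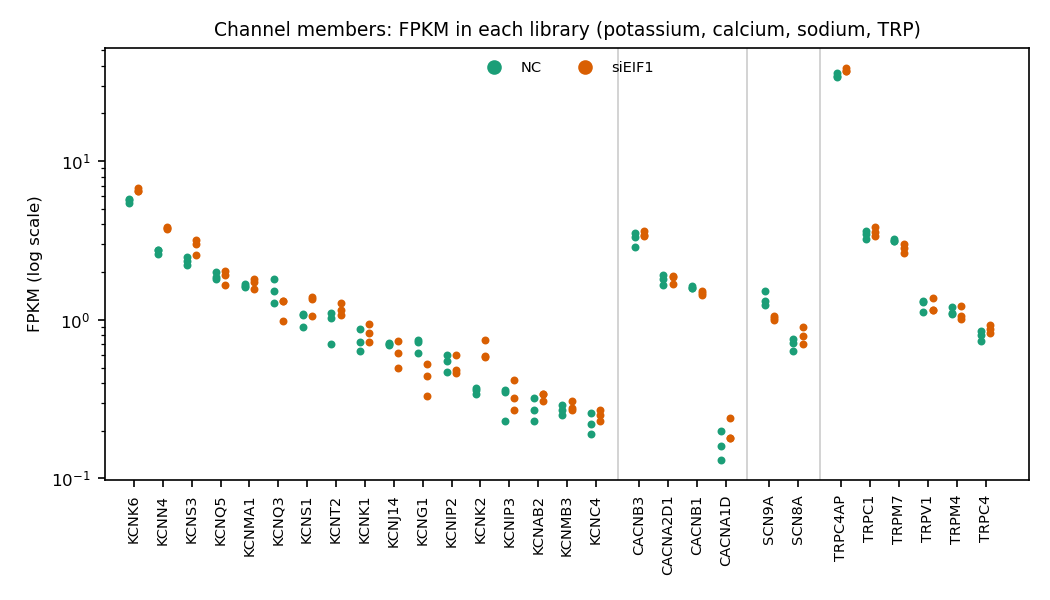
FPKM (log axis) of channel-class members (17 potassium, 4 calcium, 2 sodium and 6 TRP genes) in each of the 3 NC and 3 siEIF1 libraries, ordered by level within each class. Pore-forming channel chains lie below 10 FPKM, TRPC4AP alone lies above it, and the groups are apart for KCNK2 and KCNN4 but overlap for most genes.

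Voltage-gated calcium channels admit calcium when the membrane depolarises, and their beta and alpha-2-delta chains bring the pore chain to the surface. Of the 4 members, edgeR called 0, with 0 at an unadjusted p under 0.05 and 0 called by DESeq2 or limma. The median log2 fold change was 0.071. CACNA1D, the pore chain Cav1.3 and an L-type channel of the retinal pigment epithelium, was read at 2.97, 3.69 and 4.53 CPM in NC and at 4.31, 4.33 and 5.63 CPM in siEIF1. These groups overlapped, and the log2 fold change of 0.35 had an SE of 0.170 (edgeR adjusted p = 0.177). The beta chain CACNB3 was the most abundant member at 3.25 ± 0.322 and 3.48 ± 0.135 FPKM (log2 fold change 0.12, SE 0.0747). CACNA2D1, an alpha-2-delta chain, was at 1.80 ± 0.130 and 1.81 ± 0.104 FPKM (log2 fold change 0.024, SE 0.0710). The beta chain CACNB1 had groups that did not overlap, 13.7, 13.8 and 14.0 CPM against 13.5, 12.9 and 12.6 CPM, but its log2 fold change of -0.091 (SE 0.0735) did not pass the test (edgeR adjusted p = 0.434).

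Voltage-gated sodium channels carry the fast inward current of excitable cells. The class held 1 call in each direction among its 4 members, with a median log2 fold change of 0.16. Of all tested genes with a mean count of 50 or more, 24.5% were called. At an unadjusted p under 0.05 there were 2 members, DESeq2 called 1 and limma called 0. SCN9A (Nav1.7, known from sensory neurons) went from 21.2, 25.9 and 22.0 CPM in NC to 17.6, 17.7 and 17.9 CPM in siEIF1. The siEIF1 libraries lay almost on top of each other and below every NC library. It fell by 0.38 on the log2 scale (SE 0.0801, edgeR adjusted p = 0.00449), from 1.35 ± 0.140 to 1.03 ± 0.0306 FPKM. The pore chain SCN8A (Nav1.6) was at 0.20 (SE 0.0957) on the log2 scale and did not pass (edgeR adjusted p = 0.170). SCN9A lies on chromosome 2 from 166195185 to 166376001, on the reverse strand.

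TRP channels are cation channels that respond to lipids, store depletion, heat or the energy state of the cell. Of the 6 TRP members edgeR called 0, with 2 at an unadjusted p under 0.05 and 0 called by DESeq2 or limma. TRPM7, a magnesium- and calcium-permeable channel with a kinase domain, was read at 47.4, 47.9 and 48.1 CPM in NC and at 43.6, 41.4 and 45.1 CPM in siEIF1. Its groups did not overlap, yet the log2 fold change of -0.14 (SE 0.0538) missed the threshold (edgeR adjusted p = 0.0861). TRPC4AP, the adaptor that binds TRPC4 and is no channel, was read at 131, 135 and 138 CPM in NC and at 144, 148 and 149 CPM in siEIF1, again without overlap (log2 fold change 0.13, SE 0.0452, edgeR adjusted p = 0.0616). The receptor-operated channels TRPC1 and TRPC4 had log2 fold changes of 0.084 and 0.15, the calcium-activated TRPM4 -0.035 and the heat and capsaicin channel TRPV1 -0.0031. The class median was 0.040, and without TRPC4AP it was -0.0031 over 5 genes.

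Most of the members at 10 FPKM or more were pump chains. Of the 7 pump genes 2 fell (28.6%, against 24.5% of all tested genes with a mean count of 50 or more). The median log2 fold change of the pump genes was -0.061, with a range from -0.66 to 0.019. At an unadjusted p under 0.05 there were 3 members, DESeq2 called 2 and limma called 1.

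ATP2B1 (PMCA1, the ubiquitous plasma membrane pump that expels calcium) showed the steepest fall of the pumps and the smallest p of all members. It was read at 92.5, 85.7 and 80.8 CPM in NC and at 55.8, 48.8 and 58.8 CPM in siEIF1. Every siEIF1 library lay far below every NC library. It fell by 0.66 on the log2 scale (SE 0.0705, edgeR adjusted p = 2.69e-05), to 0.631 of its NC level, and the FPKM went from 7.45 ± 0.463 to 4.64 ± 0.535. It was called under all 14 alternative fits. ATP2B1 lies on the reverse strand of chromosome 12, from 89588049 to 89709366, and 1.55% of its exonic bases overlap the antisense gene ATP2B1-AS1, which held 27 to 46 counts per library.

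The related pump ATP2B4 (PMCA4) was not called. It was at 17.3 ± 0.696 FPKM in NC and 17.2 ± 1.65 FPKM in siEIF1 (log2 fold change 0.0045, SE 0.0609, edgeR adjusted p = 0.972). Within each library ATP2B1 made up 32.5, 29.0 and 28.7% of the summed FPKM of these 2 pumps in NC and 23.3, 19.4 and 21.2% in siEIF1. The sum itself was 24.5, 25.2 and 24.6 FPKM in NC and 20.5, 20.9 and 24.1 FPKM in siEIF1, the last of which came close to the NC libraries. The calcium pump of the endoplasmic reticulum, ATP2A2 (SERCA2), was read at 179, 163 and 171 CPM in NC and at 143, 149 and 165 CPM in siEIF1, with siEIF1 3 inside the NC range. Its log2 fold change of -0.16 (SE 0.0592) did not pass the test (edgeR adjusted p = 0.0697). ATP2C1 (SPCA1), which fills the Golgi with calcium and manganese, was at 8.41 ± 0.0451 and 8.36 ± 0.407 FPKM (log2 fold change 0.010, SE 0.0464).

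The sodium-potassium pump consists of a catalytic alpha chain and a beta chain that the alpha chain needs to reach the surface. The beta-1 chain ATP1B1 was at 38.6 ± 1.71 and 36.5 ± 0.520 FPKM (log2 fold change -0.061, SE 0.0489, edgeR adjusted p = 0.434). The beta-3 chain ATP1B3 was read at 95.8, 80.6 and 81.8 CPM in NC and at 74.1, 73.1 and 75.4 CPM in siEIF1. The groups did not overlap, but NC 1 stood well above the other NC libraries. ATP1B3 fell by 0.21 on the log2 scale (SE 0.0636, edgeR adjusted p = 0.0298), from 27.0 ± 2.61 to 22.9 ± 0.875 FPKM. Without NC 1 the log2 fold change was -0.13 (edgeR adjusted p = 0.110), and the call was also lost without siEIF1 1 or siEIF1 2 (edgeR adjusted p = 0.0510 and 0.105). ATP1B1 held 58.9 ± 3.30% of the summed FPKM of the 2 beta chains in NC and 61.4 ± 0.571% in siEIF1, with overlapping groups. ATP1B3 spans bases 141876124 to 141926549 of chromosome 3, on the forward strand. The annotation also names a processed pseudogene of it, ATP1B3P1, to which part of its reads could have been assigned.

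Exchangers use the gradients that the pumps build. Of the 10 members 1 rose and 2 fell (30%, against 24.5% of all tested genes with a mean count of 50 or more). The median log2 fold change was 0.055 (-0.048 over 8 genes without the scaffolds SLC9A3R1 and SLC9A3R2). DESeq2 called 3 and limma called 2.

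The called sodium-proton exchangers both fell. SLC9A7 (NHE7, of the trans-Golgi network) was read at 55.2, 49.5 and 54.2 CPM in NC and at 34.6, 33.3 and 38.3 CPM in siEIF1. Every siEIF1 library lay far below every NC library. It fell by 0.58 on the log2 scale (SE 0.0663, edgeR adjusted p = 5.03e-05), from 4.35 ± 0.286 to 2.87 ± 0.275 FPKM. It was called under all 14 alternative fits. SLC9A7 lies on the reverse strand of chromosome X, between bases 46599251 and 46759118, and a pseudogene of it, SLC9A7P1, is annotated.

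The other sodium-proton exchangers did not pass the test. SLC9A5 (NHE5, at the surface) had a log2 fold change of -0.13 with groups that did not overlap. The endosomal SLC9A9 was at 0.23 and the Golgi exchanger SLC9A8 at 0.034. SLC9A3R1 (NHERF1), the scaffold that ties SLC9A3 and other membrane proteins to ezrin, had the highest level of all members, 141 ± 7.17 FPKM in NC and 147 ± 3.29 FPKM in siEIF1 (log2 fold change 0.077, SE 0.0547, edgeR adjusted p = 0.367). Its relative SLC9A3R2 (NHERF2) was at 0.11.

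SLC8A1 (NCX1, which trades sodium for calcium at the plasma membrane) had the lowest level of all members. It was read at 42, 49 and 53 raw counts in NC and at 90, 82 and 81 raw counts in siEIF1, or 1.58, 1.72 and 1.88 against 2.90, 2.82 and 2.71 CPM. The groups did not overlap, with a log2 fold change of 0.70 (SE 0.170, edgeR adjusted p = 0.0104). It was the 1 member whose NC mean lay under the count minimum, so it entered through its siEIF1 libraries and its difference is given as a description, while 0 members lay under it in siEIF1. Its mean FPKM was only 0.0633 in NC and 0.103 in siEIF1. SLC8A1 lies on the reverse strand of chromosome 2 from 40097270 to 40611053. The mitochondrial sodium-calcium exchanger SLC8B1 was at 1.90 ± 0.0551 and 1.71 ± 0.177 FPKM (log2 fold change -0.13, SE 0.0824, edgeR adjusted p = 0.309).

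**Figure D3:**
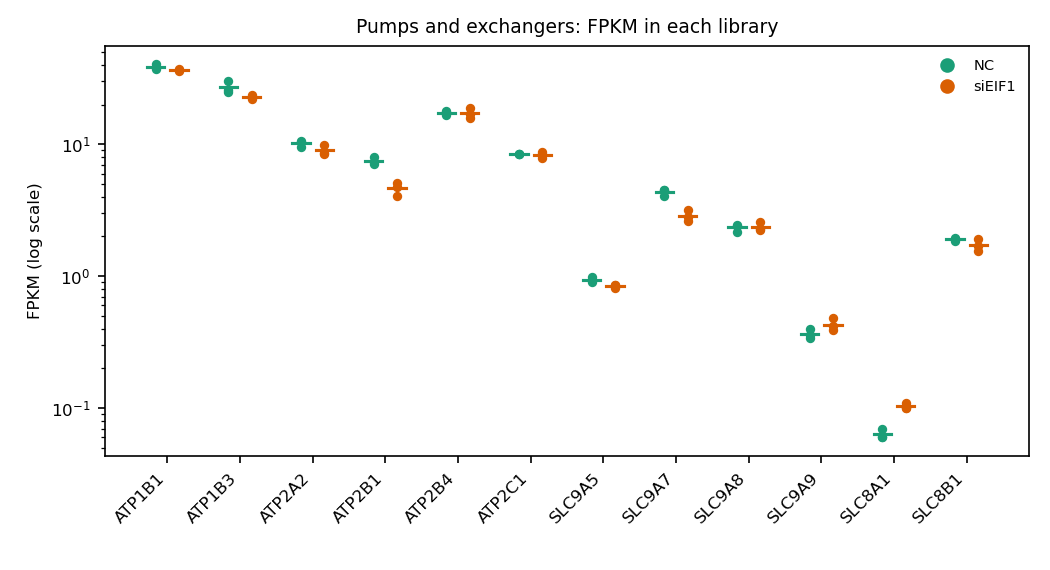
FPKM (log axis) of 6 pump genes and 6 exchanger genes in each library, with a line at each group mean (3 NC and 3 siEIF1 libraries). ATP2B1 and SLC9A7 lie lower in siEIF1, while the group means of ATP2B4 and ATP2C1 lie close together. SLC8A1 lies higher, but it met the count minimum only through its siEIF1 libraries, so its difference is a description.

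Across classes, the called share was 6 of 19 for potassium channels, 0 of 4 for calcium channels, 2 of 4 for sodium channels, 0 of 6 for TRP genes, 2 of 7 for pumps and 3 of 10 for exchangers. With classes this small, and 24.5% of all genes of that depth called, these counts are given as a description, and no test between classes was made. The class medians lay between -0.061 (pumps) and 0.17 (potassium channels).

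**Figure D4:**
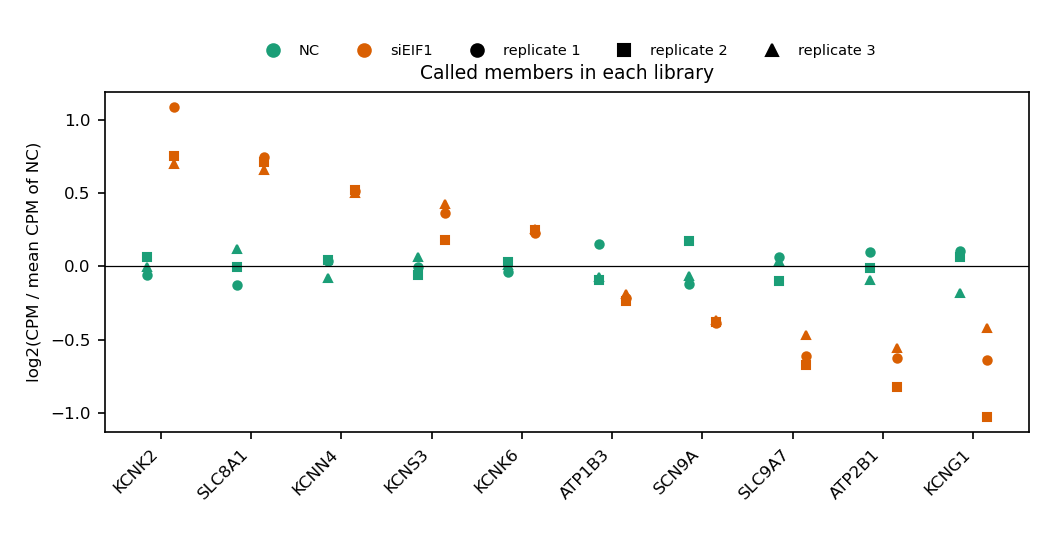
Called members (10 genes) in each library, as log2 of the CPM over the mean CPM of the 3 NC libraries, with color for the group and marker shape for the replicate number. In each gene the 3 siEIF1 libraries lie on 1 side of all NC libraries, and single libraries stand apart for KCNK2 (siEIF1 1) and ATP1B3 (NC 1).

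The annotation bears on how far these counts belong to the members alone. Exons of another gene overlap exons of 24 of the 50 members, among them 5 of the 13 called ones. Each of these 5 has a partner on the opposite strand, and SLC8A1 also has one on its own strand, which covers 1.01% of its exonic bases and was not analysed here. The strand setting of the counting is not stated, so reads of such partners may have been mixed, and their part in the values was not tested. The partner of SCN9A, SCN1A-AS1, covers 11.4% of its exonic bases and held 1 to 2 counts per library, against 515 to 738 for SCN9A. That of SLC8A1, SLC8A1-AS1, covers 9.15% and held 0 to 3 counts per library. An unnamed gene covers 8.01% of those of KCNG1 and held 0 to 5 counts per library. Among members not called, some partners held far more counts than the member. PIK3CA covers 38.0% of the exonic bases of KCNMB3 on the opposite strand, at 467 to 574 counts per library against 77 to 101. FHOD1 covers 10.5% of those of SLC9A5 on the opposite strand, at 895 to 1086 counts against 159 to 187. GRWD1 covers 6.67% of those of KCNJ14 on the same strand, at 1248 to 1432 counts against 78 to 121. The canonical transcripts of the members were long, with a median of 4250 bases against 2845 bases over 16712 tested genes. The medians were 5721 bases for the members called higher, 5899.5 bases for those called lower and 4164 bases for those not called.

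The members just above the count minimum were SLC9A9 (a mean of 57.5 counts) and KCNIP2 (63.3 counts), and those just below it were SCN2A (47 counts), KCND1 and KCNJ11 (46.8 counts each). Below the minimum were 99 genes of the symbol pattern, 42 of them with a mean under 1 count. Of the 26 that had enough counts to be tested, 3 were called higher and 1 lower, against 20.6% of all tested genes in either direction. They are named here after their values were seen. KCNJ2 (Kir2.1, an inward rectifier) was read at 23, 26 and 25 counts in NC and at 61, 65 and 57 counts in siEIF1 (log2 fold change 1.19, SE 0.208, edgeR adjusted p = 0.00129). TRPM2, a channel opened by ADP-ribose, was at 1.20 and KCNU1, a relative of the BK channel, at 1.45, while ATP2A1 (SERCA1) was at -0.90, all from means of 9.33 to 30.5 counts. KCNU1 was read at 7, 4 and 3 counts in NC and at 12, 16 and 14 counts in siEIF1. It had enough counts to be tested only through its siEIF1 libraries, so its call supports nothing.

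Genes that work with the members were taken from lists of ion transport genes, and each list is given by its counts, to be read against the 20.6% of all tested genes that were called. Of 12 tested store-operated and endoplasmic reticulum calcium genes, 3 rose and 2 fell (median log2 fold change -0.045). The calcium-binding chaperone CALR rose from 222, 222 and 220 FPKM to 321, 308 and 305 FPKM (log2 fold change 0.51, SE 0.0495, edgeR adjusted p = 1.18e-05). The calcium release channel ITPR2 rose by 0.59 (SE 0.0814), at means of only 0.547 FPKM in NC and 0.813 FPKM in siEIF1. The related ITPR3, at 21.6 and 19.4 FPKM, was not called (log2 fold change -0.13, SE 0.101, edgeR adjusted p = 0.402), nor was ITPR1. TMCO1, a calcium leak protein of the endoplasmic reticulum, fell by 0.30 (SE 0.0506). Of 9 mitochondrial calcium uptake genes 1 rose, MCU, the pore of the uniporter (log2 fold change 0.31, SE 0.0622, edgeR adjusted p = 0.00344).

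Of 4 tested sodium-potassium pump regulators 1 fell, SGK1, a kinase that raises sodium transport, which was read at 1.37, 1.08 and 1.13 FPKM in NC and at 0.71, 0.57 and 0.84 FPKM in siEIF1 (log2 fold change -0.73, SE 0.123, edgeR adjusted p = 9.47e-04). Of 4 tested partners of sodium-proton exchangers, 2 of which are members, 1 rose. This was CHP1, a calcineurin-like protein that binds sodium-proton exchangers, with a log2 fold change of 0.27 (SE 0.0471, edgeR adjusted p = 0.00138). Of 13 cation-chloride cotransporter and kinase genes 2 rose, SLC12A4 (0.30) and WNK2 (0.31).

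Of 30 tested other cation channels 4 rose and 1 fell (median 0.10). Among those that rose, P2RX7 was read at 7, 6 and 14 counts in NC and at 33, 21 and 35 counts in siEIF1. It had enough counts to be tested only through its siEIF1 libraries, so its call supports nothing. TMEM38B, a potassium channel of the endoplasmic reticulum that balances calcium release, fell by 0.53 (SE 0.0791, edgeR adjusted p = 4.25e-04). The ATP-gated P2RX6 rose by 0.62 (SE 0.111), and the epithelial sodium channel chain SCNN1A rose by 1.39 (SE 0.287) from 0.07, 0.14 and 0.06 FPKM to 0.21, 0.23 and 0.27 FPKM. Of 21 listed ion transport genes known from the native retinal pigment epithelium, KCNJ13 was not among the genes of the count table. TRPV4, CFTR and SLC16A8 were near 0 (means of 0.5, 1.33 and 2.83 counts) and were not tested. Of the 17 tested, 8 of them members, 1 rose and 3 fell (median -0.013). Among those that fell were the bicarbonate transporter SLC4A5 (log2 fold change -0.98, SE 0.214, edgeR adjusted p = 0.00580) and the lactate carrier SLC16A1 (-0.16), and the one that rose was the bicarbonate transporter SLC4A4 (0.27).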

How the data were processed

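RNA-seq was performed on ARPE-19 cells transfected with NC or siEIF1 under high glucose (50 mM), with 3 libraries in each group, described in the methods as independent biological replicates prepared in parallel and sequenced in 1 run. Groups and replicate numbers were taken from the sample titles. Replicates differed beyond sampling noise, so each was kept.

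The authors trimmed reads with FASTX-Toolkit 0.0.13, aligned them to GRCh38 with HISAT2 (version not given in the sources used here), and deposited raw counts of uniquely mapped reads per gene. The authors also deposited FPKM values rounded to 2 decimals, which were used here to compare levels between genes. The libraries are directional, but the counting program, its strand setting and the annotation release are not given in the sources used here, and 0 columns could not be matched to a library.

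Counts were tested with edgeR 4.0.16 in R 4.3.3 (TMM normalization, filterByExpr, quasi-likelihood test, Benjamini-Hochberg adjustment over 16749 genes). CPM used TMM-scaled library sizes, and the SE was derived from the F statistic. DESeq2 1.42.0, the tool of the study, and limma 3.58.1 on log2(FPKM + 1) and log2(FPKM + 0.1) were alternatives, beside other normalizations and filters, other count minimums for members, a 1.5-fold limit, the replicate number as a block and leaving out each library. The tests were run on simulated counts with known changes first. Positions and overlaps came from GENCODE release 44 on GRCh38, with genes matched by Ensembl ID.

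The members and lists were chosen with earlier results of these data known. The rule for named genes took EIF1, called members with an absolute log2 fold change of at least 0.5, and in each class the 2 members with the highest FPKM and the 3 with the smallest p. KCNS3, KCNQ3, KCNMA1, ATP2B4, ATP2C1 and SLC8B1 were given with their levels after their values were seen, and other members by their log2 fold change. In each list up to 3 genes with the smallest p are named, and other list genes were named after their values were seen. A few members are left out of the text and figures and are not reported here.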

Additional observations from a re-analysis of the deposited data

How the results depend on the processing

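Of the 13 calls, 5 (among them KCNK6, KCNN4, SLC9A7 and ATP2B1) held under all 14 alternative fits. Under RLE or upper-quartile normalization and either filter on low counts all 13 held, and DESeq2 kept 12. With limma on log2(FPKM + 1) or log2(FPKM + 0.1), 5 held (2 higher and 3 lower): 2 potassium channels, 0 sodium channels, 1 pump and 2 exchangers, and 7 genes of the ion transport lists in place of 19. The class median with FPKM + 1 was 0.031 for potassium and 0.066 for sodium channels. That pseudocount shrinks the changes of genes with low FPKM.

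Past the fold limit there were 0 members, 2 with a count minimum of 20, 5 at 1.5-fold and 0 to 1 without 1 library (1 without NC 2 or siEIF1 1). DESeq2 called 1 sodium channel. With a minimum of 20 there was 1 TRP call, TRPM2, which was also past the fold limit. It met that minimum only through its siEIF1 libraries (13, 20 and 11 counts in NC, 42, 34 and 34 in siEIF1), so its call supports nothing. The medians were then 0.11 for TRP genes, TRPM2 included, and -0.11 for pumps. With a minimum of 100 the medians were 0.22 for potassium channels and -0.048 for exchangers. Without the binding partners, an alternative chosen after seeing the data, the exchanger median was also -0.048.

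Without 1 library, 5 to 8 members were higher and 4 to 9 lower, with 1 to 3 sodium channels, 0 to 1 TRP genes and 1 to 3 pumps called (1 sodium channel without NC 2, 1 TRP gene without siEIF1 3, and 1 pump without NC 1, siEIF1 1 or siEIF1 2). Medians ran from 0.10 to 0.22 for potassium channels, 0.099 to 0.25 for sodium channels, -0.089 to -0.025 for pumps and 0.029 to 0.071 for exchangers. The causes of these moves were not tested.

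The sign turned in CACNA2D1, which was never called (-0.028 to 0.064 without 1 library, negative without NC 2 and without siEIF1 1, at -0.0055). Over 22 of the named genes, KCNQ3 not among them, 279 alternative values kept direction and call, 21 lost the call, 6 gained it and 2 changed sign.

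Libraries with the same replicate number correlated in their deviations from the group means at 0.149, 0.0946 and 0.128, so the libraries were taken to share only a number, although each of the 6 correlated best with its own number, a hint from the data and not from the design. With the replicate number as a block, 4277 genes were called in place of 3446, all 13 members held, 4 more were called and 1 TRP gene was among the calls. At this depth the SE of members ran from 0.0452 to 0.199, and p-values rest on 3 libraries a group.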
